A study of Mus musculus with 6 samples.

Results

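The 40 genes described here carry the signal of the erythropoietin (Epo) receptor and of Kit, the stem cell factor receptor, in red cell precursors. They came from a list chosen with earlier results of these data known, so it was not set independently of these peaks. All 40 were matched by symbol among 21887 mouse protein-coding genes on the chromosomes. A gene counted as touched when a listed region overlapped its annotated body or the 10 kb on either side. The data are peak lists of methyl-CpG immunoprecipitation sequencing, in which a methyl-CpG binding domain (MBD2-Fc) pulls down CpG-rich DNA that carries methyl groups. The cells were I/11, an established mouse erythroblast line grown out of the fetal liver of E12.5 embryos without p53, so every group shares the loss of p53. All cells went through lentiviral infection and 48 h of selection in 1 ug/ml puromycin, and were expanded with 1 U/ml Epo, 100 ng/ml stem cell factor and 1 uM dexamethasone. The 4 groups used carried hairpin 133 or hairpin 14 against Plcg1, the phospholipase C gamma 1 gene, and were collected either 72 h after infection (0 h of differentiation) or 96 h after it, following 24 h in medium with 10 U/ml Epo and holo-transferrin. The 2 groups with a scrambled hairpin were not analysed here. Stem cell factor, the product of Kitl and the ligand of Kit, is named among the supplements of the expansion medium and not of the differentiation medium.

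Epo binds a receptor that has no kinase of its own and works through the bound kinase Jak2, which phosphorylates the receptor tail and the transcription factors Stat5a and Stat5b. Kit is itself a tyrosine kinase. Both receptors gather adaptors (Shc1, Grb2, Gab1, Gab2, Irs2) that lead to Ras and MAP kinases through Sos1 and Sos2 and to phosphoinositide 3-kinase and Akt, and both are shut down by phosphatases, ubiquitin ligases of the Cbl family and proteins of the Socs family. In erythroblasts these pathways sustain survival and expansion, and withdrawal of the Kit signal accompanies maturation.

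A listed region marks a place that the authors' peak caller reported for 1 library. The files hold positions only, so a region has no height, and no source used here says whether it stands for more or less methylated DNA than in another library. The lists held 3900 peaks (hairpin 133) and 3437 peaks (hairpin 14) at 0 h, and 2960 and 2666 peaks at 24 h. Read depth is unknown. Each group was 1 library, so no difference between groups could be tested, and all counts below describe these 4 libraries. Exact binomial 95% intervals cover counting error only. They are no test, since the genes were not chosen independently of these peaks. Plcg1 itself held no peak within 10 kb, its nearest peaks being 263, 235, 217 and 2120 kb away (hairpins 133 and 14 at 0 h, then at 24 h). A peak list does not measure the transcript and checks neither the knockdown nor the cell type. For the erythroid genes Gata1, Klf1, Tfrc, Hba-a1, Hbb-bs, Slc4a1 and Alas2, 0 peaks were listed within 10 kb in any library. Of all protein-coding genes, 26.0% had a peak in at least 1 list. With so few genes, nothing particular to erythroid genes is read from this count.

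A single region near these genes was listed in all 4 libraries, and it lay on the promoter of a neighbour. It was counted for Cbl, the ubiquitin ligase that removes activated Kit and Epo receptors, but it lay 8.18 kb past the 3′ end of Cbl (mm10 chromosome 9, 44142976 to 44234259, minus strand). The region overlapped the start of Mcam, the gene of melanoma cell adhesion molecule (chromosome 9, 44134658 to 44142727, plus strand), and a promoter window of the predicted gene Gm10687. The RefSeq promoter window of Mcam (GRCm38.p6, chr9:44134408-44134707, plus strand, 250 bases before to 50 after the start) is printed because it holds part of the recurrent region. Capitals mark the 79 bases that were listed in at least 1 library. The rest of the region, up to 44134796, lies past the window and is not printed.
Mcam: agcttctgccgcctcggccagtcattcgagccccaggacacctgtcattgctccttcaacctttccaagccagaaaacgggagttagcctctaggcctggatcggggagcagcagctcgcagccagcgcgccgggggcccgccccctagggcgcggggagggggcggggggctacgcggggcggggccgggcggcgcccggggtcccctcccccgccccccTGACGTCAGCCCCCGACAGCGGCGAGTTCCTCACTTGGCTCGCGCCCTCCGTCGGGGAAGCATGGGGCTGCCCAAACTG
These capitals hold 8 of the 29 CpG of the window. At 0 h both hairpins gave the same peak, 44134646 to 44134796. At 24 h both gave the same peak, 44134629 to 44134779, a shift of 17 bp.

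A promoter window was found for 36 of the 40 genes, and 0 of the 36 overlapped a peak in any library, which allows a share of up to 8.33%. Over all 17492 protein-coding genes with a promoter window, 2.04% had one that overlapped a peak in any list, so a count of 0 in 36 is near that share and does not set these genes apart. Of the other genes of the pathways, described at the end, Syk and Irs1 did have a peak on a promoter window. The pathway promoters were not poor in CpG: the richest window of each gene held a median of 27 CpG, from 5 in Pik3cg to 54 in Sos2, against a median of 15 over all genes. Among windows with 20 or more CpG, 0 of 23 pathway genes had a peak (limit 13.0%), against 2.65% of all genes. The promoters of Cbl, of Irs2 (an insulin receptor substrate that docks onto the Epo receptor pathway) and of Socs3 (an inhibitor of Jak2) are printed as CpG-dense examples with no peak on them, and that of Epor as a CpG-poor one. Capitals mark CpG, and all 4 genes are on the minus strand, so each runs against the chromosome (GRCm38.p6, chr9:44233997-44234296 for Cbl, chr8:11008880-11009179 for Irs2, chr11:117969317-117969616 for Socs3 and chr9:21963527-21963826 for Epor).
Cbl: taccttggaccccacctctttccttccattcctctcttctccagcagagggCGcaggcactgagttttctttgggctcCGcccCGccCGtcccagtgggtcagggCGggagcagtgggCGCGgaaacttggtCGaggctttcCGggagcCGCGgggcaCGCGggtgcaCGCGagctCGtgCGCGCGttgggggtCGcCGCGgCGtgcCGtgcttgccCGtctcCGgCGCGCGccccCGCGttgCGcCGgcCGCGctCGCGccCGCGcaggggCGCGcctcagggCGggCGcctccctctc
Irs2: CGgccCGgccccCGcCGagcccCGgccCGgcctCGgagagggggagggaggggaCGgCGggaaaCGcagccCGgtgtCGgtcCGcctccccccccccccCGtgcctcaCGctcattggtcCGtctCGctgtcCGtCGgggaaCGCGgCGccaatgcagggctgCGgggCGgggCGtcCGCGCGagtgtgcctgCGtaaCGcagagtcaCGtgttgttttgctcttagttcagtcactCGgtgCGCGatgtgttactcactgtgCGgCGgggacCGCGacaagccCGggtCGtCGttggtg
Socs3: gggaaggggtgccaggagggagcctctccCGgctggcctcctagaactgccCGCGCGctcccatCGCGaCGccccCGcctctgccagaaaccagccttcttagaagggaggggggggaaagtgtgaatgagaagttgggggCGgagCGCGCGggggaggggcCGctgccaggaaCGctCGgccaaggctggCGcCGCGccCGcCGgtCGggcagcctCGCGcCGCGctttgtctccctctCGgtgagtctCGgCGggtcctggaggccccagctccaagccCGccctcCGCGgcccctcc
Epor: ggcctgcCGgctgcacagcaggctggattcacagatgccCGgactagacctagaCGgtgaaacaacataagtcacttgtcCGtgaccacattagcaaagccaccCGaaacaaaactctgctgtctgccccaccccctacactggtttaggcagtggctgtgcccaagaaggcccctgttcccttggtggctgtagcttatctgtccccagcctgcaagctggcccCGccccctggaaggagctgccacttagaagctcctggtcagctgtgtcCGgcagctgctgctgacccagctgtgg
The Cbl window holds 43 CpG, the Irs2 window 41, the Socs3 window 31 and the Epor window 7. The STAT motif TTCNNNGAA, which reads the same on both strands, was present in windows of Akt2, Gab1, Socs3 and Cish (4 of 36 genes, 11.1%), against 8.92% of all genes with a window, and no peak lay on any of them.

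Counted over the body and 10 kb, 9 of the 40 genes had a peak with hairpin 133 at 0 h (22.5%, 95% interval 10.8 to 38.5%), against 12.7% of all protein-coding genes. With hairpin 14 at 0 h there were 6 of 40 (interval 5.71 to 29.8%), against 11.0%. At 24 h there were 8 with hairpin 133 (interval 9.05 to 35.6%), against 10.5%, and 4 with hairpin 14 (interval 2.79 to 23.7%), against 9.72%. The share of all genes lay inside the interval with each library, and the count with hairpin 14 at 24 h was close to it. Both hairpins gave an overlapping region at Cbl and Pik3cd at 0 h, 2 of 40 genes (5.0%), against 4.61% of all genes, and at Cbl and Sos1 at 24 h, again 2 of 40, against 3.38%. Cbl alone had a region of all 4 lists (2.5%), against 1.28%. In the body alone, with the 10 kb on either side left out, 3 and 4 of the 40 genes had a peak at 0 h (hairpins 133 and 14), against 8.84% and 7.87% of all genes, and 6 and 1 at 24 h, against 7.19% and 6.78%. The counts with hairpin 133 at 0 h and hairpin 14 at 24 h were then below the share of all genes, and the others above it. In the body alone the hairpins shared a region at 1 gene at 0 h (Pik3cd, against 3.2% of all genes) and at 0 genes at 24 h (2.16%), and 0 genes had a region of all 4 lists (0.754%).

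**Figure D1:**
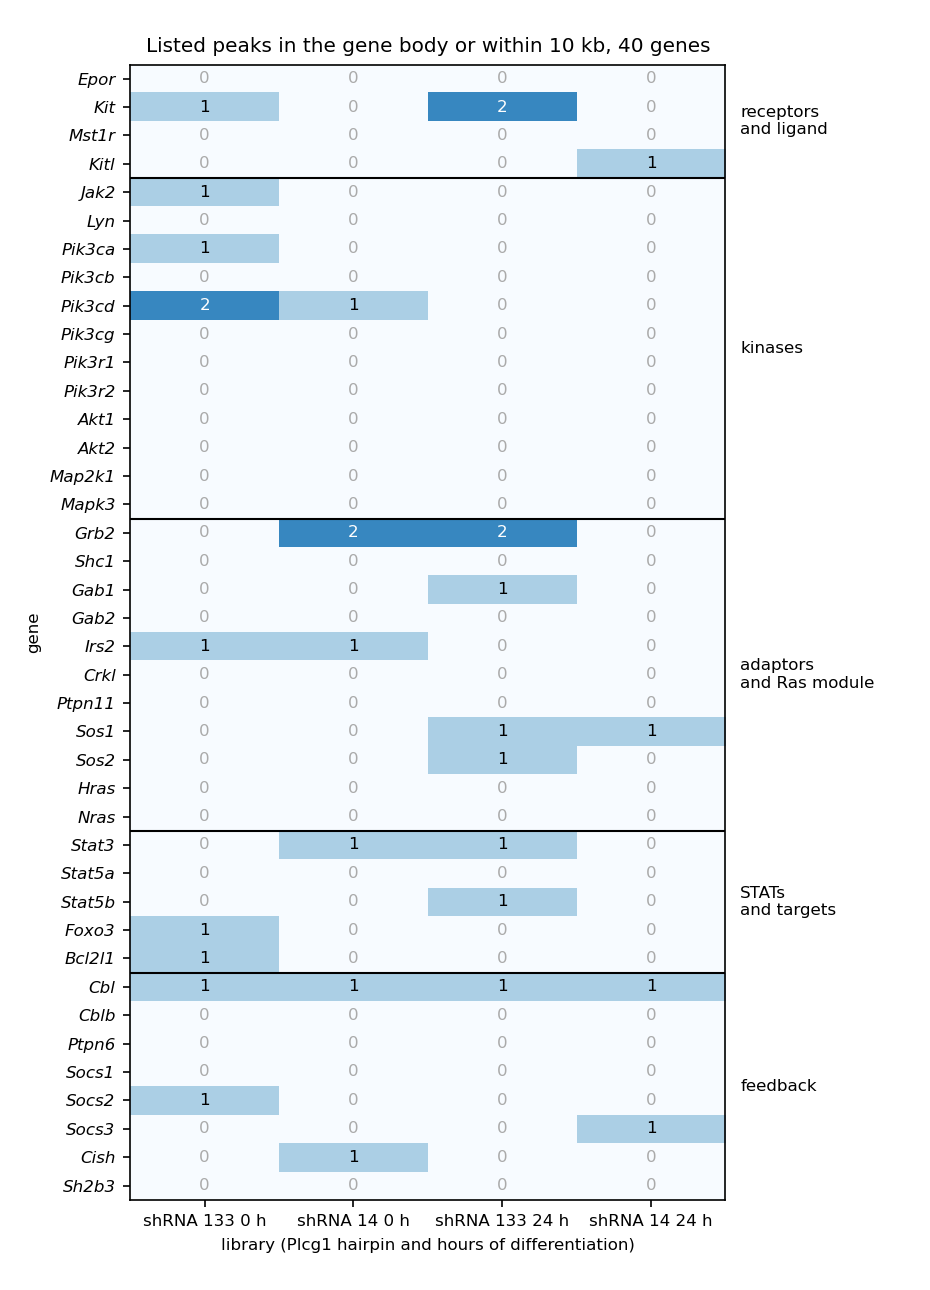
Number of listed peaks in the body or within 10 kb of each of the 40 genes (rows, grouped by role) in the 4 libraries (columns, 1 library each). Cbl is the 1 gene with a peak in every column, Grb2 and Stat3 have peaks in the same libraries (hairpin 14 at 0 h and hairpin 133 at 24 h), and 22 rows hold 0 throughout.

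Over the 4 lists, 18 of the 40 genes (45.0%, 29.3 to 61.5%) had a peak in at least 1, against 26.0% of all protein-coding genes. Here the share of all genes lay below the interval. That interval takes no account of gene length or of how the 40 genes were chosen, so no excess is concluded from it. Of the 93 other genes of these pathways, described at the end, 32 (34.4%, 24.9 to 45.0%) had a peak in at least 1 list. The 40 genes carried 26 separate regions, of which 23 (88.5%) came from 1 list, 2 from 2 lists and 1 from all 4. Over the windows of all protein-coding genes, 77.7% of 7157 regions came from 1 list, and over those of the 93 other genes 80.8% of 52. Per length of window, the 40 genes held 8.55 regions per Mb, the 93 other genes 7.09 and all genes 5.56. Of the 18 genes, 11 had a peak in 1 list, 6 in 2 lists, 0 in 3 and 1 in 4. Over all protein-coding genes, 14.9% had a peak in 1 list, 6.35% in 2, 2.72% in 3 and 2.07% in 4.

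Gene length moved with the count. The windows of the 40 genes had a median of 73.1 kb (21.7 to 247 kb), against 37.2 kb over all genes. Of the 19 genes whose windows exceeded 77.1 kb, 12 had a peak in at least 1 list, against 49.2% of all genes in that class. Over all genes that class reaches 2410 kb, against 247 kb among the 40, so its share is not matched in length. In the next class down (44.6 to 77.1 kb) Pik3cd, Socs2 and Stat3 had a peak, 3 of 7 genes, against 29.7%, and from 31.7 to 44.6 kb only Irs2 of 5, against 22.4%. From 24.2 to 31.7 kb Cish and Socs3 had one, 2 of 7, against 18.3%. Neither of the 2 genes with the shortest windows, Socs1 and Hras, had a peak. The part of length in the higher count was not tested.

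**Figure D2:**
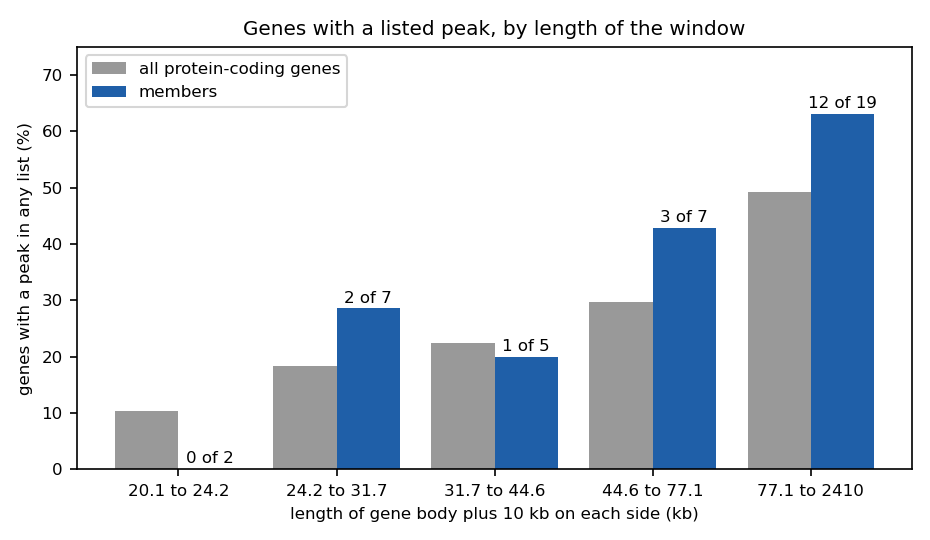
Percent of genes with a peak in any list (vertical axis) by the length of body plus 10 kb on each side (horizontal axis, 5 classes of about equal numbers of protein-coding genes), for all protein-coding genes (grey) and for the 40 signalling genes (blue, with counts). The share rises from 10.3% to 49.2% over the classes of all genes, and 19 of the 40 genes fall in the longest class.

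Among the 4 receptor and ligand genes, Kit and Kitl had peaks in some list, against 26.0% of all genes, and Epor and Mst1r had none. Both Kit and Kitl have windows above 77.1 kb, a class in which 49.2% of all genes had a peak. Kit had 1 peak with hairpin 133 at 0 h, 5.12 kb upstream of the gene (chromosome 5, 75569713 to 75569863), and with the same hairpin at 24 h it had 2 others inside the gene, 16.8 and 21.3 kb past its start site (75591702 to 75591852 and 75596212 to 75596362). With hairpin 14 the nearest peak to Kit was at 124 kb (0 h) and 388 kb (24 h). Kit thus had a peak at both times with hairpin 133, but at no shared position. Kitl had 1 peak inside the gene, with hairpin 14 at 24 h (chromosome 10, 100031662 to 100031812), 15.9 kb past the start site. The other lists had their nearest peak to Kitl 172 kb (hairpin 133) and 464 kb (hairpin 14) away at 0 h and 376 kb (hairpin 133) away at 24 h.

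Epor is a short gene of 4.68 kb (chromosome 9, 21958897 to 21963576), and its nearest peaks were 125 kb off in the 0 h list of hairpin 133 and 25.3 kb off in the other 3 lists. Mst1r, a receptor tyrosine kinase of the Met family, spans 13.5 kb, and its nearest peaks were at 15.5 kb (hairpin 14 at 0 h, hairpin 133 at 24 h) and at 230 kb in the other lists.

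Among the 12 kinase genes, 3 had a peak with hairpin 133 at 0 h (Jak2, Pik3ca and Pik3cd), 1 with hairpin 14 at 0 h (Pik3cd) and 0 with either hairpin at 24 h, against 12.7%, 11.0%, 10.5% and 9.72% of all genes. In a group of 12 such shares correspond to a gene or so, and nothing particular to kinases is read from these counts. Of 25 other kinase genes of the pathways, 3 and 6 were touched at 0 h (hairpins 133 and 14) and 4 and 2 at 24 h, against the same shares of all genes. That group too is small, and nothing particular to kinases is read from it. Pik3cd, the leukocyte-rich catalytic subunit p110 delta of phosphoinositide 3-kinase (chromosome 4, 149649168 to 149702566, minus strand), was the 1 gene whose own body held a region of both hairpins. The peak of hairpin 133 (149672234 to 149672384) and that of hairpin 14 (149672249 to 149672399) were offset by 15 bp and lay 3.77 kb past the nearest of its 3 annotated start sites. Hairpin 133 gave another peak in the gene at 149685137 to 149685287. At 24 h the nearest peak to Pik3cd was 14.3 kb away with each hairpin.

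Jak2, the kinase bound to the Epo receptor, had 1 peak with hairpin 133 at 0 h, 39.9 kb into the gene (chromosome 19, 29291639 to 29291789). The other lists had their nearest peaks to Jak2 at 93.1 kb (hairpin 14 at 0 h), 391 kb (hairpin 133 at 24 h) and 102 kb (hairpin 14 at 24 h). The peak counted for Pik3ca, the catalytic subunit p110 alpha, lay 0.061 kb past the 3′ end of the gene (chromosome 3, 32466173 to 32466323), inside the body of Kcnmb3, a potassium channel subunit gene, and was listed with hairpin 133 at 0 h. The kinase Lyn, the other catalytic subunits (Pik3cb, Pik3cg), the regulatory subunits (Pik3r1, Pik3r2), Akt1, Akt2, Map2k1 and Mapk3 had 0 peaks in every list.

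Among the 11 adaptor and Ras module genes, 5 had a peak in some list, against 26.0% of all genes. Grb2, Gab1, Sos1 and Sos2 have windows above 77.1 kb, a class in which 49.2% of all genes had a peak. Irs2 is in the class with 22.4%. In a group of 11, nothing particular to adaptors is read from this count. Grb2, the adaptor that carries Sos to phosphorylated receptors (chromosome 11, 115644045 to 115708597, minus strand), had 4 peaks, all at different positions. With hairpin 14 at 0 h they lay 0.505 kb past its 3′ end (115643390 to 115643540) and in its body (115686242 to 115686392), and with hairpin 133 at 24 h in its body (115660416 to 115660566) and 2.63 kb upstream of the gene (115711227 to 115711377). Neither hairpin had a peak at Grb2 at both times. Irs2 had 1 peak with each hairpin at 0 h and none at 24 h: with hairpin 133 it lay 2.18 kb upstream (chromosome 8, 11011112 to 11011262), in the body of the non-coding gene 9530052E02Rik, and with hairpin 14 inside Irs2, 2.62 kb past its start (11006233 to 11006383).

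The exchange factors Sos1 and Sos2, which load Ras with GTP, had peaks at 24 h only. The peak counted for Sos1 had the same coordinates with both hairpins (chromosome 17, 80384043 to 80384193) and lay 9.56 kb past the 3′ end of the gene, in the body of Arhgef33, another exchange factor gene. Sos2 had 1 peak in its body with hairpin 133 (chromosome 12, 69610200 to 69610350). Gab1, a docking protein, likewise had 1 with hairpin 133 at 24 h (chromosome 8, 80829532 to 80829682). Shc1, Gab2, Crkl, Ptpn11 (the phosphatase Shp2), Hras and Nras had 0 peaks in every list. The group had 1 gene with a peak with hairpin 133 at 0 h and 4 at 24 h, and 2 and 1 with hairpin 14.

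**Figure D3:**
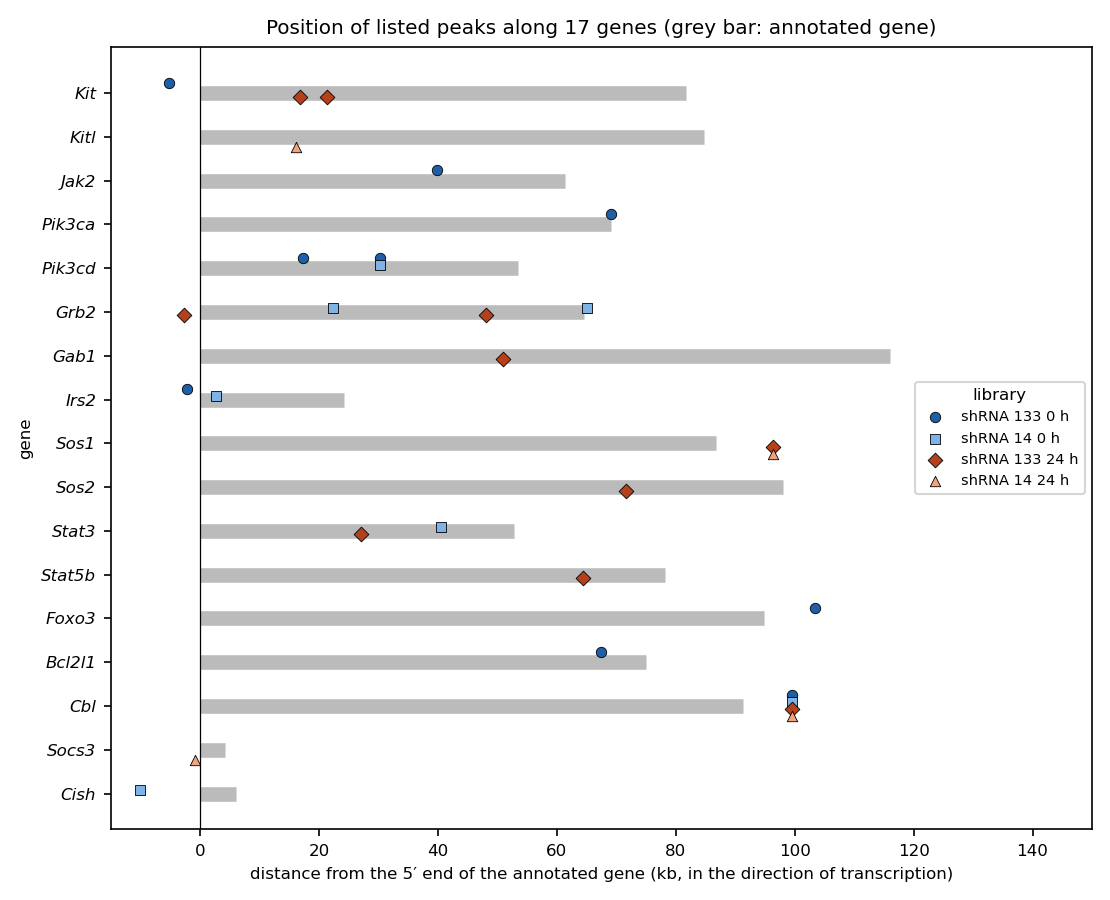
Position of every listed peak (symbols, by library) along the 17 genes that had a peak and an annotated strand, in kb from the 5′ end of the annotated gene (horizontal axis, grey bar for the gene). Peaks of different libraries coincide at Cbl (4 libraries, 8.18 kb past its end), Sos1 (both 24 h libraries, 9.56 kb past its end) and Pik3cd (both 0 h libraries).

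Among the 5 STAT and target genes, 4 had a peak in some list, against 26.0% of all genes. Stat5b, Foxo3 and Bcl2l1 have windows above 77.1 kb, a class in which 49.2% of all genes had a peak. Stat3 is in the class with 29.7%. In a group of 5, nothing particular to STAT and target genes is read from this count. Stat3, activated by Kit and by cytokine receptors, had 1 peak with hairpin 14 at 0 h (chromosome 11, 100899072 to 100899222) and another with hairpin 133 at 24 h (100912492 to 100912642), both in its body. Stat5b had 1 peak with hairpin 133 at 24 h (100794537 to 100794687), in its body. Its neighbour Stat5a had none, and the nearest peaks to Stat5a were 367 and 13.9 kb away at 0 h (hairpins 133 and 14) and 27.3 and 97.2 kb away at 24 h. For Stat5b the nearest were 288 and 18.6 kb away at 0 h and 18.6 kb away with hairpin 14 at 24 h. With hairpin 133 at 0 h, Bcl2l1, the anti-apoptotic Bcl-xL gene that Stat5 activates, had 1 peak in its body (chromosome 2, 152766382 to 152766532), and Foxo3, a transcription factor that Akt inhibits, had 1 at 8.57 kb past its 3′ end (chromosome 10, 42173123 to 42173273).

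Among the 8 feedback genes, 4 were touched in some list (Cbl, Socs2, Socs3 and Cish), against 26.0% of all genes, and every one of these peaks lay outside the gene. By window length, 49.2% of all genes had a peak in the class of Cbl, 29.7% in that of Socs2 and 18.3% in that of Socs3 and Cish. In a group of 8, nothing particular to feedback genes is read from this count. The peak counted for Socs2 lay 9.57 kb before the lower-coordinate end of the gene, with hairpin 133 at 0 h (chromosome 10, 95374187 to 95374337). That for Cish, a Stat5 target that dampens the Epo receptor, was listed with hairpin 14 at 0 h and overlapped the 10 kb window by 28 bp, inside Mapkapk3 (chromosome 9, 107286536 to 107286686); by its centre it would not have counted. Of these peaks, that for Socs3 was the nearest to its gene, 0.748 kb upstream of the annotated body and 1.79 kb before the start site of the promoter printed above, with hairpin 14 at 24 h (chromosome 11, 117971084 to 117971234). The other lists had their nearest peak to Socs3 at 211 kb (hairpin 133 at 0 h), 55.4 kb (hairpin 14 at 0 h) and 232 kb (hairpin 133 at 24 h). Cblb, Ptpn6 (the phosphatase Shp1), Socs1 and Sh2b3 (the adaptor Lnk, which restrains Jak2) had 0 peaks in every list.

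Of the 26 regions, 15 overlapped the body of the gene they were counted for, 5 lay upstream, 5 downstream and 1 beside Socs2, for which no strand was at hand. None lay within 1 kb of a start site that the promoter table gave for its gene, and 4 lay within 5 kb. Such a start site can lie inside the annotated body, and distances from the body can be shorter. The Socs3 peak lay 0.748 kb upstream of the body and 1.79 kb before the start site. At Grb2 the upstream peak lay 2.63 kb from the body and 11.4 kb before the nearest start site. The body of another protein-coding gene held 4 of the regions (at Pik3ca, Sos1, Cbl and Cish), among them 2 of the 3 regions that more than 1 list held. The same placements were not counted for the regions at all protein-coding genes. Without that share, nothing particular to the signalling genes is read from where their regions lay. By chromosome, the genes with a peak in some list were 3 of 3 on chromosome 10 (Kitl, Foxo3 and Socs2, against 38.5% of its protein-coding genes). On chromosome 11 they were 4 of 5 (28.4%), and Stat5b, Stat5a and Stat3 lie side by side there. Chromosome 8 had 2 of 3 (27.6%) and chromosome 9 had 2 of 6 (24.6%). Chromosomes 3 (24.2%), 5 (29.6%) and 12 (38.9%) had 1 of 3 each. There were 0 of 4 on chromosome 7 (21.1%) and 0 of 3 on chromosome 16 (26.2%). With so few genes per chromosome, nothing particular to a chromosome is read from these counts. Chromosome 10 held 10.5% to 11.4% of the peaks of a list.

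With hairpin 133, 7 genes had a peak at 0 h only (Bcl2l1, Foxo3, Irs2, Jak2, Pik3ca, Pik3cd and Socs2), 6 at 24 h only (Gab1, Grb2, Sos1, Sos2, Stat3 and Stat5b), and Cbl and Kit at both. With hairpin 14, 5 had one at 0 h only (Cish, Grb2, Irs2, Pik3cd and Stat3), 3 at 24 h only (Kitl, Socs3 and Sos1), and Cbl at both. Over all protein-coding genes the shares were 8.54%, 6.32% and 4.18% with hairpin 133 and 7.01%, 5.68% and 4.03% with hairpin 14 (0 h only, 24 h only and both). The 2 genes and the 1 gene counted at both times (5.0% and 2.5% of the 40) were near the shares of all genes, and at Kit the peaks of the times did not overlap. Grb2 and Stat3 were counted at 0 h only with hairpin 14 and at 24 h only with hairpin 133.

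**Figure D4:**
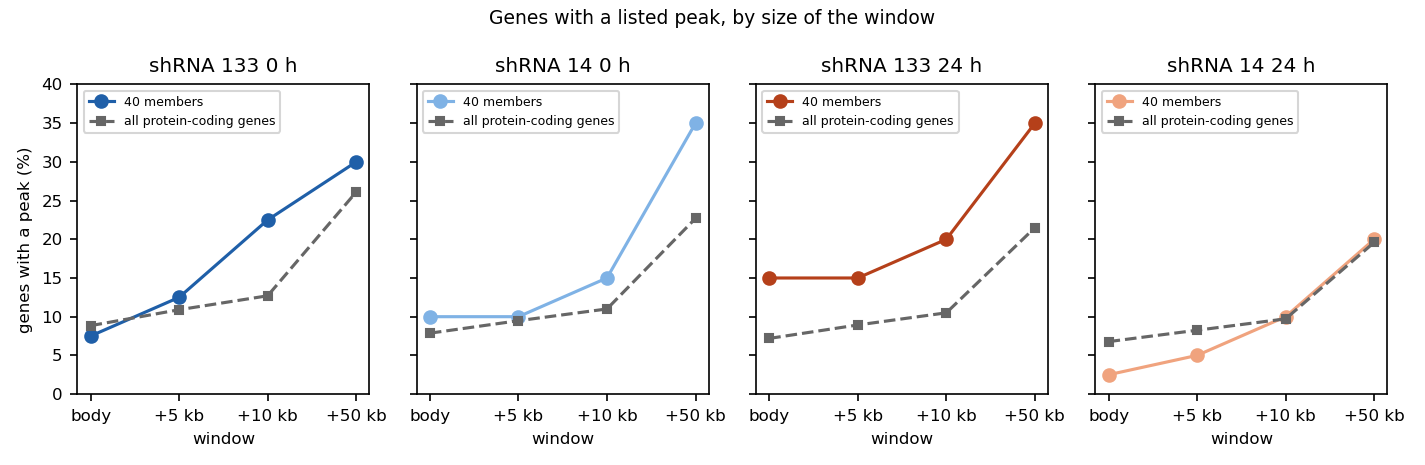
Percent of genes with a peak (vertical axis) by size of the window (horizontal axis, body alone or with 5, 10 or 50 kb on each side), for the 40 signalling genes (solid) and all protein-coding genes (dashed), 1 panel per library. With hairpin 133 at 0 h and hairpin 14 at 24 h the solid line starts below the dashed one at the body alone, and with hairpin 14 at 0 h and hairpin 133 at 24 h it lies above it at each window size.

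In any single list, most of the 40 genes had no peak nearby. The median gap from a gene body to the nearest peak was 132 and 85.3 kb at 0 h (hairpins 133 and 14) and 106 and 126 kb at 24 h, against 157 and 198 kb and 211 and 243 kb over all protein-coding genes. The gap is measured from the ends of the gene, so a longer gene comes nearer to peaks by its length. Cblb, a relative of Cbl, was the farthest at 0 h, with its nearest peak 2090 and 3670 kb away, and Socs1, an inhibitor of Jak2, at 24 h, with 1780 and 2430 kb.

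**Figure D5:**
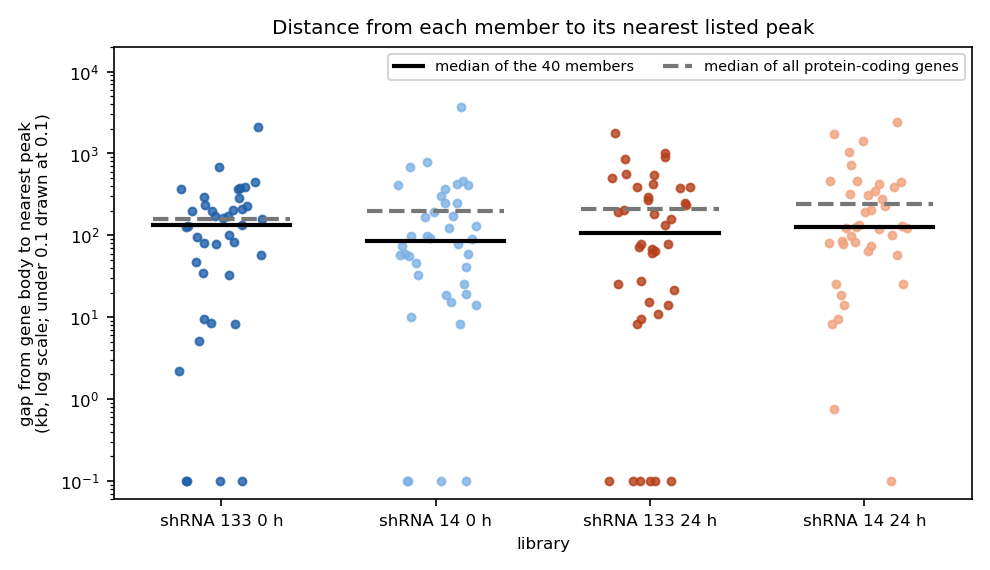
Gap from each of the 40 gene bodies to its nearest listed peak (points, kb, log scale, gaps under 0.1 kb drawn at 0.1) in the 4 libraries, with the median of the 40 genes (solid) and of all protein-coding genes (dashed). The solid line is below the dashed one in each library, from 85.3 to 132 kb against 157 to 243 kb.

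A list of 93 other genes of these pathways had peaks at 12 and 12 genes at 0 h (hairpins 133 and 14, 12.9% each) and at 18 (19.4%) and 9 (9.68%) at 24 h, against the shares of all genes given above. By role, in the order hairpins 133 and 14 at 0 h and then at 24 h, 0, 1, 4 and 2 of 12 receptors and ligands had a peak, and 3, 2, 5 and 2 of 14 adaptor and Ras module genes. Of 15 STATs and targets 3, 2, 3 and 0 had one, and of 27 feedback genes 3, 1, 2 and 3. In the same order, 12.7%, 11.0%, 10.5% and 9.72% of all protein-coding genes had a peak. With groups of 12 to 27 genes, nothing particular to a role is read from these counts. Syk, a tyrosine kinase gene, and Irs1, the relative of Irs2, had peaks in all 4 lists, and Igf1r in 3. Irs1 differed from Irs2 in where they lay: at 0 h both hairpins gave the same peak 0.594 kb past the Irs1 start site (chromosome 1, 82290770 to 82290920), and hairpin 14 at 24 h gave one on the start site itself (82291425 to 82291575), while with hairpin 133 at 24 h the peak lay 4.11 kb before it (82295470 to 82295620). At Syk, peaks lay from 0.326 kb before the start site to 1.4 kb past it. Neither Syk nor Irs1 had a single region common to all 4 lists.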

How the data were processed

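The 4 deposited files hold chromosome, start and end of each region (unit: bp), with no score, count or strand. Per the submitters' processing notes, BWA, Picard, SAMtools and HOMER were used on mm10, with no version, order or setting. Whether peaks were called against an input or the scrambled hairpin library, and at which threshold, no source used here gives. File starts count from 0 and printed ones from 1. Gene bodies came from a RefSeq table (GRCm38.p6, the coordinates of mm10, without exons or strand) and promoter windows, strands and start sites from a RefSeq promoter table of that build, so exons, introns and untranslated regions could not be told apart. A gene counted when a peak overlapped its body or the 10 kb on either side by at least 1 bp, and peaks overlapping by at least 1 bp counted as shared. No test was run, since every group is 1 library. Alternatives were other windows, peak centres, 50% reciprocal overlap and identical coordinates. The 40 genes, their roles and the list of 93 other genes were chosen with earlier results of these data known, and all 40 are accounted for. Of the other genes, those with peaks in 3 or 4 lists are named, except where a gene is not reported here. Neighbouring genes that held a peak, the genes in the extremes and the printed promoters were chosen after their values were seen. Counting was tested on simulated peaks. Python 3.11.15, pandas 2.3.3, NumPy 2.4.6 and SciPy 1.17.1 were used.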

Additional observations from a re-analysis of the deposited data

Results flagged for a closer look

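The number of the 11 adaptor and Ras module genes with a peak differed by 3 between 0 h and 24 h with hairpin 133 (Irs2 at 0 h, and Grb2, Gab1, Sos1 and Sos2 at 24 h) and by -1 with hairpin 14 (Grb2 and Irs2, then Sos1), that is in opposite directions. Over all protein-coding genes the shares were 12.7% and 10.5% with hairpin 133 and 11.0% and 9.72% with hairpin 14. Different genes were counted at the times, and the peak counted for Sos1 with both hairpins lay 9.56 kb from it, in Arhgef33. With 1 library per group this difference was not tested.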

How the results depend on the processing

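Of 38 alternative counts over 7 results, 20 stayed within 1.5 times the reported count. The share of all protein-coding genes under the same setting stands after each count. With the gene body alone, 3 of 40 genes had a peak with hairpin 133 at 0 h (8.84%) and 1 with hairpin 14 at 24 h (6.78%), and regions of both hairpins touched 1 gene at 0 h (3.2%) and 0 at 24 h (2.16%), and those of all lists 0 (0.754%). With 5 kb on either side these counts were 5 (10.9%), 2 (8.25%), 1 (3.95%), 0 (2.77%) and 0 (1.01%). With 50 kb, 14 genes had a peak with hairpin 14 at 0 h (22.7%), 14 with hairpin 133 at 24 h (21.5%) and 8 with hairpin 14 at 24 h (19.6%), and regions of both hairpins at 24 h touched 6 (7.15%) and those of all lists 2 (2.76%). Leaving out peaks that both hairpins had at the same coordinates, 2 genes were left with hairpin 14 at 24 h (7.2%). With identical coordinates required for sharing, 1 gene was left at 0 h (3.79%) and 0 over all lists (0.0366%). A wider window takes in more genes by its construction. The 0 h and 24 h libraries pair by hairpin, but each group was 1 library, so no paired test was run. The genes with a peak at each time are given within each hairpin instead. Read depth is unknown, so a gene without a peak cannot be called unmethylated.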

Other observations

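Regions listed in more than 1 library also lay between 10 and 50 kb from several of the genes, mostly in a neighbouring gene. A region of all 4 lists lay 14.3 kb from Pik3cd (chromosome 4, 149634736 to 149634891), in the body of Clstn1, the calsyntenin 1 gene. A region 25.3 kb from Epor (chromosome 9, 21988831 to 21988984), in the body of Rgl3, was listed with hairpin 14 at both times and with hairpin 133 at 24 h. The same 3 libraries listed a region 18.6 kb from Stat5b (chromosome 11, 100762011 to 100762164), in the body of Hcrt, the hypocretin gene. A region 15.5 kb from Mst1r (chromosome 9, 107935884 to 107936078) lay on the promoter window of Camkv, with hairpin 14 at 0 h and hairpin 133 at 24 h. At 0 h both hairpins listed a region 32.8 kb from Akt2 (chromosome 7, 27673585 to 27673735), in Map3k10, and another 12.6 kb from Cbl (chromosome 9, 44130260 to 44130410). At 24 h both listed a region 43.7 kb from Gab1 (chromosome 8, 80924207 to 80924366). The last 2 lay in no protein-coding gene. These regions were sought after the counts by window size had been seen, and the neighbours were not part of the gene lists.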
